A study of Homo sapiens with 7 samples.

Results

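The genes described here encode the protein subunits of the cytosolic ribosome. They were taken from the RefSeq annotation of hg38 (GRCh38.p14) as protein-coding genes on chromosomes 1 to 22 and X whose symbol is RPL or RPS followed by digits and at most 1 letter, with RPLP0, RPLP1, RPLP2 and RPSA. The rule found 81 genes among 19974 protein-coding genes, on 21 chromosomes, 12 of them on chromosome 19. Chromatin immunoprecipitation and sequencing of RUNX2, a Runt-domain transcription factor, and of H3K27ac, a histone acetylation found at active promoters and enhancers, had been done in KARPAS-45 and PER-117, established lines of T-cell acute lymphoblastic leukemia (T-ALL). The medium held 20% fetal bovine serum for KARPAS-45 but 10% for PER-117, neither line had a treatment in the labels, and the study's title names RUNX2 as a factor on which immature T-ALL, and T-ALL with KMT2A rearrangement, depend. There was 1 library per line and antibody, so no difference between the lines has a replicate check and no test was made. Each group is a single established line, so what is peculiar to a line and what is peculiar to its library cannot be told apart.

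Ribosomal proteins and ribosomal RNA form the large and small subunits that carry out translation. The genes are among the most strongly transcribed of any dividing cell, and many of their messages begin with a pyrimidine tract at the first base, the feature that ties their translation to growth signals. Several are disease genes: RPL5, RPL10, RPL11 and RPL22 are altered in some T-ALL, and loss of 1 copy of many others causes Diamond-Blackfan anaemia, an inherited failure of red cell production. RUNX proteins bind a short core motif, TGTGGT or TGCGGT, as a pair with their partner CBFB.

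On the chromosomes used, the RUNX2 lists held 42911 peaks in the KARPAS-45 and 21027 in the PER-117 library, and the H3K27ac lists 63265 and 53263 regions. A gene was called bound when the summit of a RUNX2 peak was at most 1 kb from an end of its span, and acetylated when an H3K27ac region overlapped such a window by 1 bp or more. Each fold enrichment was taken from the deposited lists as the authors gave it and ranks peaks inside its own list. The scales of the lists were not matched, and the lower of a member's values served only to choose which members to describe. Read depth is unknown, which limits what a missing peak can show. Of 8 T-lineage marker genes, 8 were acetylated in the KARPAS-45 and 7 in the PER-117 library, where CD5 was not. None of 3 myeloid and 3 erythroid markers was acetylated in either line, and 2 of 4 B-lineage markers were acetylated in each line, but not PAX5.

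The promoters of 7 members are shown because the summit of their strongest RUNX2 peak lay in the window from 250 bases before to 50 after the annotated start in both lines. RPS3A, RPS16, RPL10A and RPL22 had the highest fold enrichments of the members with such a sequence, and RPL11 is a T-ALL gene. RPL4 and RPL18 were added after their values were seen, for a RUNX core next to the summit. Each run reads 5′ to 3′ on the strand of the gene, from 250 bases before the start to 20 bases from the start on, and capitals mark a RUNX core on either strand. The sequences are from RefSeq GRCh38.p14: RPS3A at chr4:151099378-151099647 on the plus strand, RPS16 at chr19:39435930-39436199 on the minus strand, RPL10A at chr6:35468151-35468420 on the plus strand, RPL22 at chr1:6199576-6199845 on the minus strand, RPL11 at chr1:23691529-23691798 on the plus strand, RPL4 at chr15:66504836-66505105 on the minus strand and RPL18 at chr19:48619159-48619428 on the minus strand.
RPS3A: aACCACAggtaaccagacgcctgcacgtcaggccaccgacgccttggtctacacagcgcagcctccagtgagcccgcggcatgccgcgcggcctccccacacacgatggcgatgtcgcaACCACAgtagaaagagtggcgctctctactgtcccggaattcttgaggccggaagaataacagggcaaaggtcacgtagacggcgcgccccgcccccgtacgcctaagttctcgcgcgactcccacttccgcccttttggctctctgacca
RPS16: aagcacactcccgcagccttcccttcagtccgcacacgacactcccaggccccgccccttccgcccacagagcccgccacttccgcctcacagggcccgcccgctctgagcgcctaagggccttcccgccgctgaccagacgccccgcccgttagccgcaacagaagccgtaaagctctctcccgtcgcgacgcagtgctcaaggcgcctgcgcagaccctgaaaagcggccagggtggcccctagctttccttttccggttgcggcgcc
RPL10A: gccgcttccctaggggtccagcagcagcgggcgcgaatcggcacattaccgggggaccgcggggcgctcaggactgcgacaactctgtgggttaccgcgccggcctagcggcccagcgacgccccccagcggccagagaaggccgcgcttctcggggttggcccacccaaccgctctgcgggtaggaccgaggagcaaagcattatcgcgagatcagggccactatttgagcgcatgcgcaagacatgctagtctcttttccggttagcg
RPL22: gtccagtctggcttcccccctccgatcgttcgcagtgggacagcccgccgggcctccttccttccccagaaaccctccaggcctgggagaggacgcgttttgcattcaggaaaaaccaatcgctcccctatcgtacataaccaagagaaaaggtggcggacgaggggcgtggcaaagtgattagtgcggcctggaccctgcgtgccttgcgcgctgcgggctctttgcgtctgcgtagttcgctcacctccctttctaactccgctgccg
RPL11: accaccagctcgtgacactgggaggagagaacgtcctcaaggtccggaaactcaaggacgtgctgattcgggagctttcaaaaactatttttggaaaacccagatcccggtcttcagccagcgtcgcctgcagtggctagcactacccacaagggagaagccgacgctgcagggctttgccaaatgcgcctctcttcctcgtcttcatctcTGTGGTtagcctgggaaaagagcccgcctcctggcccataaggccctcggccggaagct
RPL4: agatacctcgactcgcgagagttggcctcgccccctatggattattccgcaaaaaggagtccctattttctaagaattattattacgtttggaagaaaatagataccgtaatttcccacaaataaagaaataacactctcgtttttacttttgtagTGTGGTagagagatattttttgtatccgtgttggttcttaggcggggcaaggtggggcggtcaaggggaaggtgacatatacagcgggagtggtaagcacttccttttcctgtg
RPL18: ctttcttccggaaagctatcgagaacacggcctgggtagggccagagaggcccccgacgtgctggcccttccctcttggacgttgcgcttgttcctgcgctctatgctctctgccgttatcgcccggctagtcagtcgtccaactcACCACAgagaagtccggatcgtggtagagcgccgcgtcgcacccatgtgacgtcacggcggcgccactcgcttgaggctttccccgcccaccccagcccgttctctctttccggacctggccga

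Nearly every ribosomal protein gene was acetylated at a gene end: 80 of 81 in KARPAS-45, with the same 80 acetylated in PER-117. Of all protein-coding genes, 61.0% were acetylated in the KARPAS-45 and 55.5% in the PER-117 library. The exception was RPL10L, an intronless copy of RPL10 that is active in the testis, with no H3K27ac region and no RUNX2 peak at its ends in either line. RPL3L was counted as acetylated, with a limit described among the paralogs. Some KARPAS-45 calls were weak: with a −log10 q of 2 required, 72 members stayed acetylated there and 80 in PER-117. All acetylated protein-coding genes then numbered 10153 and 10720. RPS3A was among the weak calls in KARPAS-45, with an H3K27ac fold enrichment of 1.23 and a −log10 q of 0.943. Among the 64 members whose strand is in the promoter table, the first base of the gene lay inside an H3K27ac region in 63 in each line. First bases were not counted over all protein-coding genes, so nothing particular to the members is read from that. The highest H3K27ac fold enrichment at the gene ends had a median over the members of 2.83 in the KARPAS-45 and 7.9 in the PER-117 library. The medians over all acetylated genes were 2.84 and 6.61. RPS29 (13.97), a small subunit gene, and RPL27A (12.5), a large subunit gene, were among the highest members in PER-117. The median width of the widest H3K27ac region at a member was 3778 bp in KARPAS-45 and 2640 bp in PER-117, beside 3092 bp and 1887 bp for all acetylated genes. Cutting the KARPAS-45 H3K27ac list, widest regions first, to as many bases as PER-117 covered left 15 of 81 members acetylated there. Before the cut 80 members were acetylated there. Over all 19974 protein-coding genes the same cut took the acetylated ones from 12193 to 3197. The cut keeps wide regions, and 15 members stood in the widest of 4 equal bins of acetylated genes by region width.

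RUNX2 was present at a gene end in 76 of 81 members in KARPAS-45 (93.8%), where 47.0% of all protein-coding genes and 73.9% of the acetylated ones carried it. In PER-117 it was present in 65 members (80.2%), beside 31.4% of all and 55.3% of the acetylated genes. In both lines together 64 members carried it, beside 28.0% of all protein-coding genes and 52.5% of those acetylated in both lines. A further 12 members carried it in KARPAS-45 only (19.0% of all protein-coding genes did) and 1 in PER-117 only (3.42%), and 4 carried it in neither line. The KARPAS-45 list is longer, and the order of the lines turned when the 5000 peaks of highest fold enrichment were taken from each: 12 members were then bound in the KARPAS-45 and 17 in the PER-117 library. Those are 15.0% and 21.2% of the acetylated members, beside 8.59% and 11.7% of acetylated protein-coding genes.

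**Figure D1:**
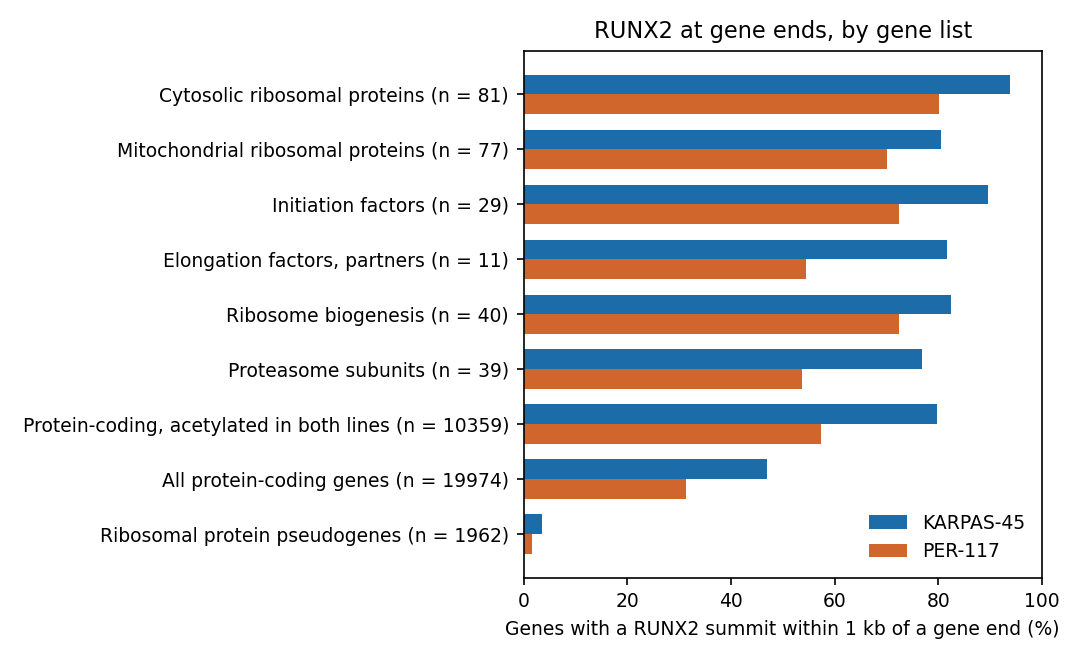
Bars give the share of genes with a RUNX2 summit within 1 kb of a gene end, in percent, for 9 gene lists in KARPAS-45 (blue) and PER-117 (orange), with 1 library each. The 81 cytosolic ribosomal protein genes stand at 93.8% and 80.2%, and the 10359 protein-coding genes acetylated in both lines at 79.8% and 57.3%.

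Ribosomal protein genes are short, with a median span of 5015 bp, which brings the windows at their ends close together. Protein-coding genes with a span of 10 kb or less that were acetylated in the same line carried RUNX2 at 69.1% in the KARPAS-45 and 52.8% in the PER-117 library. Among the 2364 genes of that length acetylated in both lines, the shares were 76.1% and 55.6%, and 50.4% were bound in both. Of the 69 members in that class 66 (95.7%) and 56 (81.2%) were bound, and 56 were bound in both. The members also had high H3K27ac in PER-117, where acetylated genes were divided into 4 equal bins by H3K27ac fold enrichment and 32 of 80 members fell in the highest. In that bin 25 of the 32 were bound, beside 66.9% of the 2771 genes in it, and in the next bin down 27 of 33, beside 62.2%. In the same 4 bins of KARPAS-45, 17 of 18, 20 of 22, 19 of 19 and 20 of 21 members were bound from the lowest to the highest, beside 70.8% to 76.0% of all genes in a bin. With KARPAS-45 bins by H3K27ac width, 1 of 2, 27 of 28, 34 of 35 and 14 of 15 members were bound, narrowest first. The shares of all genes in those width bins were 56.9%, 77.6%, 81.5% and 79.5%.

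**Figure D2:**
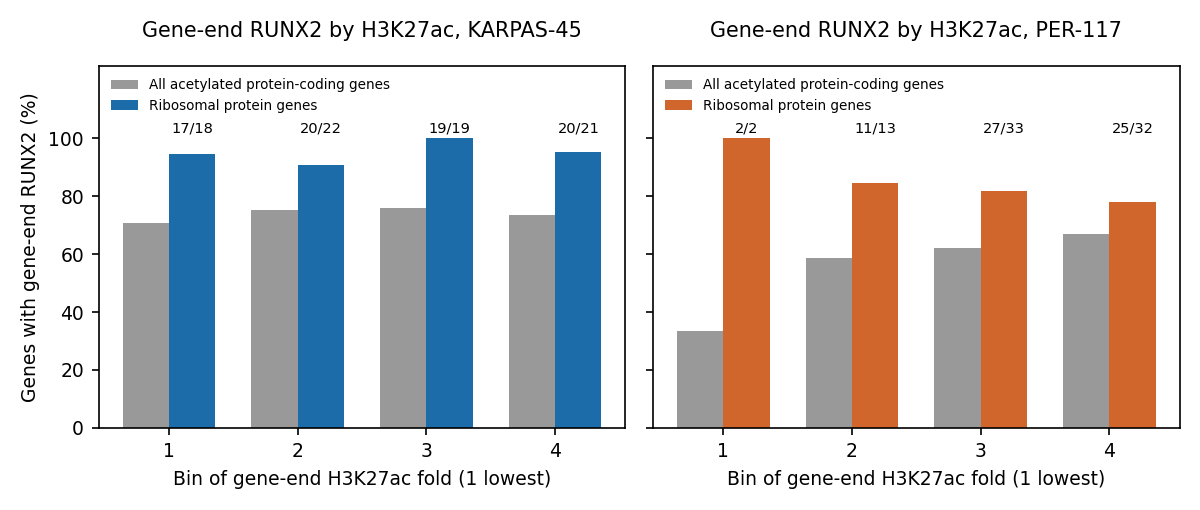
Bars give the percent of genes with gene-end RUNX2 in each of 4 bins of gene-end H3K27ac fold enrichment, for all acetylated protein-coding genes (grey) and for the ribosomal protein genes (coloured, with bound over all members above the bar). In KARPAS-45 the members lie above the grey bars in each bin, and in PER-117 the gap is smallest in the highest bin, with 25 of 32 against 66.9%.

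The peaks themselves were close in strength to those of other genes. The strongest gene-end peak of a bound member had a median fold enrichment of 7.63 in KARPAS-45, with a range from 3.03 to 41.5, and of 6.0 in PER-117, from 3.08 to 30.7. Over all bound protein-coding genes the medians were 6.97 and 5.73. Within the whole lists, 12 of the 76 peaks in KARPAS-45 and 5 of the 65 in PER-117 lay at or above percentile 90, while 15 and 10 lay below percentile 25. Among the 64 members bound in both lines, the fold enrichments in the 2 lists ranked alike to a moderate degree (Spearman rho 0.559 across genes). Over the 5592 genes bound in both lines rho was 0.499. Both describe genes of the same libraries, and genes are not independent replicates.

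**Figure D3:**
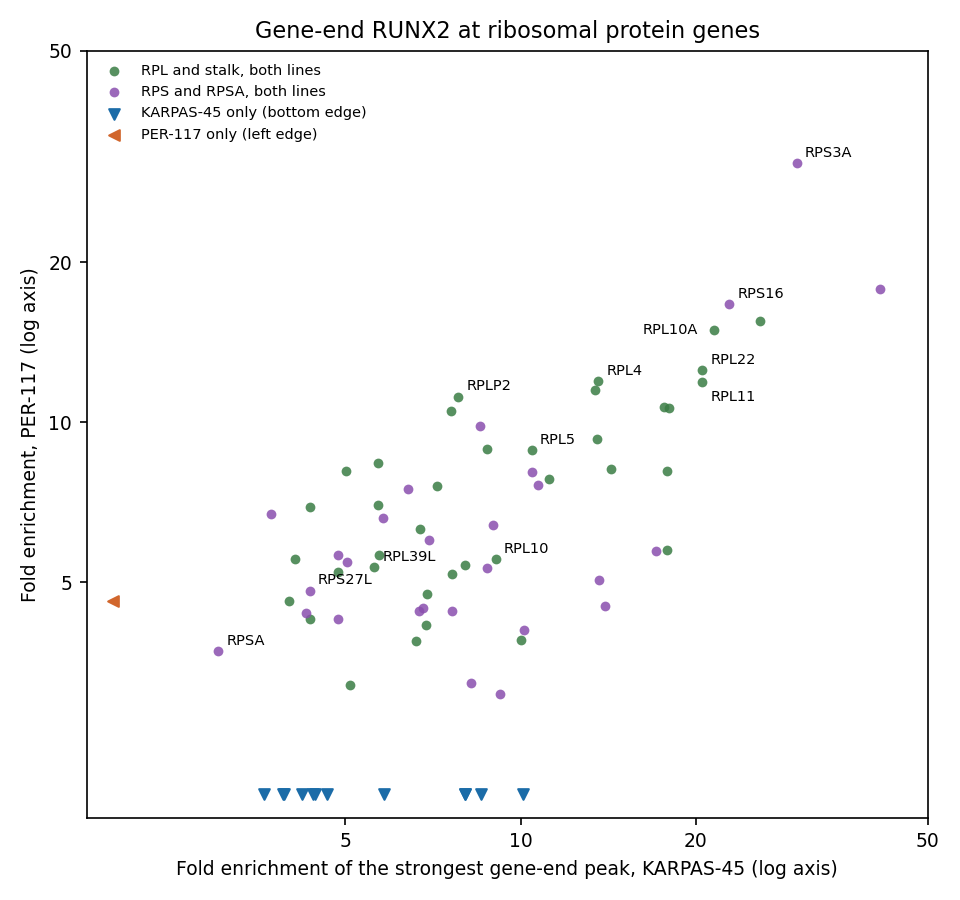
Each point is 1 ribosomal protein gene, placed by the fold enrichment of its strongest gene-end RUNX2 peak in KARPAS-45 (horizontal) and PER-117 (vertical), both on log axes. Triangles on the bottom and left edges mark genes bound in 1 line, and RPS3A stands highest in PER-117 at 30.7 while RPSA lies lowest in KARPAS-45 at 3.03.

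The 10 strongest members bound in both lines, by the lower of their fold enrichments, belong to both subunits, and 8 of them are described here. RPS3A, a small subunit gene (chromosome 4, 151099628 to 151104642), had 29.8 in KARPAS-45, at percentile 97.4 of that list, and 30.7 in PER-117, at percentile 99.4. Its summits lay 194 and 170 bases before the start. RPS16, another small subunit gene, had 22.8 and 16.7, with summits 6 bp apart at 109 and 115 bases before the start. RPL10A, a large subunit gene, had 21.5 and 14.9, with summits 100 and 114 bases before the start. RPL4, a protein that lines the exit tunnel of the large subunit, had 13.6 and 11.96, and RPL13A, known also for silencing inflammatory messages once released from the ribosome, had 13.4 and 11.5. RPL18 had 17.6 and 10.7. RPL22 and RPL11 are described with the T-ALL genes. The lowest percentile among the 10 was 84.4 in the KARPAS-45 list, at RPL13A, and 84.0 in the PER-117 list, at RPL18.

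All 4 members altered in T-ALL were bound and acetylated in both lines, beside 79.0% of all members, and with so few genes nothing is read from the count. RPL22, whose loss of 1 copy is found in T-ALL, had 20.5 in the KARPAS-45 and 12.5 in the PER-117 library, with summits 8 and 10 bases before the start. RPL11, which with RPL5 restrains the p53 ligase MDM2 when ribosome assembly fails, had 20.5 and 11.9, with summits 40 and 31 bases before the start. RPL5 had 10.5 and 8.85, and these summits also lay within 1 kb of an end of DIPK1A. RPL10, a late-joining protein of the large subunit, had 9.06 and 5.52, with summits 261 and 769 bases after the start of its span, the first of them 51 bases from another listed start. Percentiles within the lists ran from 69.6 to 93.3 in KARPAS-45 and from 47.4 to 88.7 in PER-117, so RPL10 was the weakest of the 4 in each list.

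Of 18 members that cause Diamond-Blackfan anaemia, 18 were bound in the KARPAS-45 and 16 in the PER-117 library, and all 18 were acetylated in both lines. These shares stand near those of all acetylated members, of which 76 and 65 of 80 were bound. RPS19, the gene most often mutated in that disease, had 6.97 and 6.0, at percentiles 55.7 and 53.9. RPS26 had 10.5 and 8.04, and RPS7 had 6.41 and 7.47. RPS24 had 10.1 in KARPAS-45 (percentile 74.7) but 4.06 in PER-117 (20.6), and RPS28 9.21 (70.2) but 3.08 (3.49), the lowest value of any bound member there. The 2 without a gene-end peak in PER-117 were RPL35A and RPS15A. RPS14, the small subunit gene lost in the 5q- form of myelodysplasia, lies outside this list and had 5.8 and 6.6.

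Of the stalk proteins, which recruit elongation factors to the large subunit, RPLP2 had 7.81 in the KARPAS-45 and 11.2 in the PER-117 library, and RPLP1 had 5.71 and 5.62. RPLP0 was bound in KARPAS-45 only, with 8.54. RPSA, a small subunit protein also known as a laminin receptor, had the lowest value of any member in KARPAS-45, 3.03 (percentile 1.61), and 3.71 in PER-117 (12.4). RPS27A, which encodes ubiquitin fused to a ribosomal protein, had 5.04 and 5.45, with summits 751 and 785 bases after the first base of its span, which is 24 and 0 bases from a listed transcription start. By subunit, 42 of 46 RPL genes outside the stalk were bound in the KARPAS-45 and 36 in the PER-117 library, and of the 32 RPS and RPSA genes 31 and 27 were.

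The 12 members bound only in KARPAS-45 had fold enrichments from 3.63 to 10.1 there, with a median of 4.54. The median KARPAS-45 value of the members bound in both lines was 7.92. RPLP0 (8.54), RPS21 (8.02), RPL35A (8.02) and RPS15A (5.83) were the highest of those named here, followed by RPS3 (4.65), which also has a role in DNA repair, RPL23A (4.43), RPL39 (4.4), RPL9 (4.22), RPL32 (3.93) and RPL28 (3.63). The nearest PER-117 summit to an end lay 51086 bp away for RPLP0, 19027 bp for RPS21 and 123979 bp for RPL35A. At RPL28 it lay 1044 bp away, just outside the window, with 4.16. H3K27ac was called at all 12 in each line.

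Of the 4 members bound in neither line, RPL24, RPL17 and RPS4X were acetylated in both. At RPL17 the nearest summits lay 1229 bp from an end in KARPAS-45, with 11.2, and 1204 bp in PER-117, with 8.0, just outside the window. At RPL24 they lay 3880 and 4010 bp away. RPS4X, which encodes the X-linked form of a small subunit protein, had its nearest summit 28557 bp (KARPAS-45) and 170935 bp (PER-117) away. RPL10L had its nearest at 160440 and 160416 bp.

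The 4 paralogs showed mixed patterns. RPS27L, a paralog of RPS27 that p53 induces, had 4.34 in the KARPAS-45 and 4.82 in the PER-117 library, and RPS27 itself had 8.23 and 3.23. RPL39L, a paralog of RPL39 that is most abundant in the testis, had 5.6 and 5.34 with summits 2 bp apart, whereas RPL39 had 4.4 in KARPAS-45 and no gene-end peak in PER-117. RPL3L, the striated muscle paralog of RPL3, was the member bound in PER-117 only, with 4.6. That summit lay 832 bp from its end and also within 1 kb of an end of MSRB1, so the peak cannot be assigned to RPL3L. In KARPAS-45 the only H3K27ac region there (1941857 to 1943981) barely reached the span of RPL3L, which begins at 1943974. In PER-117 the widest of 2 regions (1942842 to 1943931) ended before the span. These 2 regions cannot be assigned to RPL3L either. RPL3 had 6.73 and 6.28. Without the 4 paralogs, 74 of 77 members were bound in KARPAS-45, 62 in PER-117 and 62 in both, and all 77 were acetylated in each line.

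In both lines RUNX2 lay at the start of more members than at the far end, as it did in acetylated genes at large. Of the 64 members with a strand, 60 in the KARPAS-45 and 50 in the PER-117 library had a summit within 1 kb of the start (93.8% and 78.1%), beside 76.1% and 56.5% of genes acetylated at the start. At the far end 7 and 5 members had one (10.9% and 7.81%), beside 7.99% and 4.78% of those genes and 14.5% and 9.6% of those with a span of 10 kb or less. H3K27ac was at the far end in 32 and 24 of the 64 members, near the 50.4% and 42.4% of genes of that length. The strongest start peak in KARPAS-45 had a median position of -66.5 bases from the start (negative is upstream), and 86.7% lay upstream. Over the 7151 acetylated genes with RUNX2 at the start, the median was -49.0 bases and 64.2% lay upstream. In KARPAS-45 80.0% of these member summits fell between 250 bases before and 50 after the start, beside 59.3% of those genes. In PER-117 the share was 64.0%, beside 40.8% of 4892 genes. The median there was -42.0 bases and 62.0% lay upstream, close to the -36.0 bases and 55.2% of those genes.

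**Figure D4:**
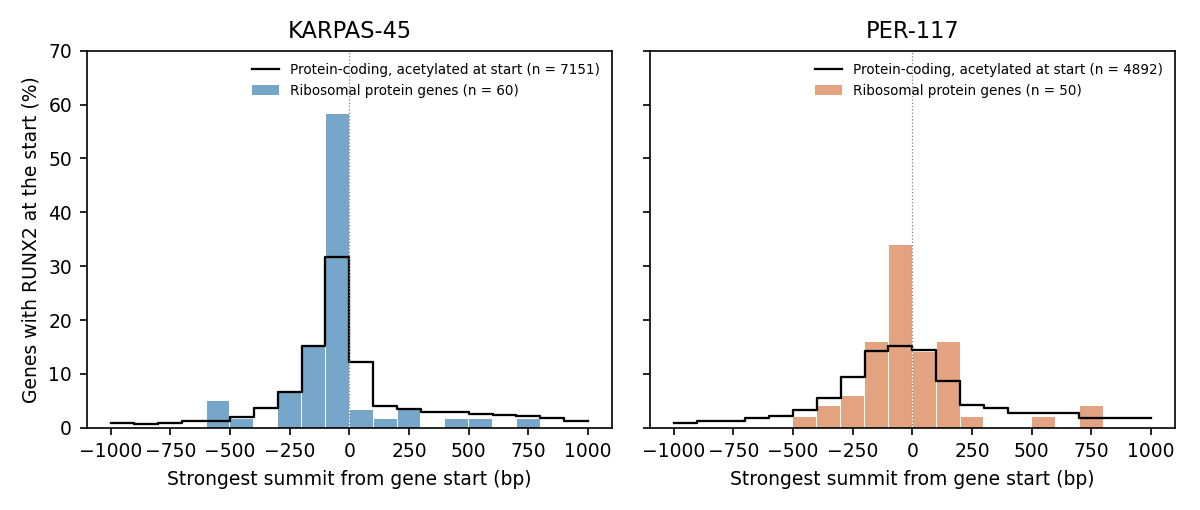
Bars give the percent of ribosomal protein genes with start RUNX2 (60 in KARPAS-45, 50 in PER-117) whose strongest summit falls in each 100 bp bin, by distance from the gene start, with negative distances upstream. The black line gives the same for acetylated protein-coding genes, and in KARPAS-45 the members pile up just before the start, with a median of -66.5 bases.

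The peaks of the lines overlapped at most members, as at most genes bound in both lines. The strongest KARPAS-45 peak overlapped a PER-117 peak in 62 of 64 such members (96.9%), beside 88.6% of 5592 such genes. The median gap between the strongest summits was 45.5 bp, beside 73.0 bp, and it was 100 bp or less in 44 members (68.8%), beside 58.5% of the genes. The exceptions without overlap were RPL13 and RPL27A, bound near the start in KARPAS-45 (62 and 116 bases upstream) and near the far end in PER-117 (5222 and 6164 bases after the start). H3K27ac of the same line covered the summit in 75 of 76 bound members in the KARPAS-45 and 63 of 65 in the PER-117 library. Covered summits were not counted over all bound protein-coding genes, of which 9006 of 9395 and 6131 of 6276 were acetylated at a gene end. Nothing particular to the members is read from the count. At RPL38, with 5.7 and 8.38, the summit lay outside H3K27ac in both lines. In 18 members in the KARPAS-45 and 17 in the PER-117 library the summit also lay within 1 kb of an end of another protein-coding gene, such as ZWILCH at RPL4, SPHK2 at RPL18, PTPN11 at RPL6 and BTK at RPL36A. The peaks at these genes cannot be assigned to either neighbour, and such cases were not counted over all bound genes. Small nucleolar RNA genes, which guide modification of ribosomal RNA, lay inside 29 members. Of these hosts 28 were bound in the KARPAS-45 and 22 in the PER-117 library, and of the 52 other members 48 and 43.

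Promoter sequences were at hand for 64 of the 81 members and for 15812 protein-coding genes, with 300 bases each around the start that the table lists, which at RPL6 lies inside the span. Motifs were searched on both strands, each alone, so matches of different motifs may overlap. TGTGGT was present in 12 member promoters (18.8%), beside 11.0% of all and 9.44% of those acetylated in both lines. TGCGGT was present in 5 (7.81%), beside 8.72% and 10.6%. Either core was present in 17 (26.6%), beside 18.9% and 19.1%. Of promoters of genes with RUNX2 in both lines, either core was in 16 of 52 for members (30.8%) and in 24.3% of all 4715. By contrast CCGGAA, the core bound by ETS factors, was present in 35 member promoters (54.7%), beside 22.7% of all and 33.2% of acetylated ones. AAGATGGC, the core of the factor YY1, was present in 6 (9.38%), beside 3.86% and 6.19%, and GGGCGG, which SP and KLF factors bind, in 36 (56.2%), beside 58.3% and 71.0%. The first base was C in 71.9% of member promoters and lay in a pyrimidine run of 5 or more in 68.8%, beside 11.3% and 8.1% of all promoters. In the sequences above, the run that holds the first base is 7 bases long in RPS3A, 11 in RPL22 and 12 in RPS16 and RPL18, while in RPL10A, RPL11 and RPL4 the first base is no pyrimidine.

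Of the 17 members with a RUNX core, all bound in KARPAS-45, 13 had the summit within 100 bp of the middle of a core (76.5%) and 7 within 20 bp (41.2%). Over the 1640 bound genes with a core the shares were 64.2% and 28.8%. In PER-117 16 were bound, 10 of them within 100 bp (62.5%) and 5 within 20 bp (31.2%), beside 58.4% and 21.3% of 1232 genes. Cores were sought only in the window from 250 bases before to 50 after the listed start. That range around the gene start held 80.0% of member start summits in KARPAS-45 and 64.0% in PER-117. For genes acetylated at the start it held 59.3% and 40.8%. Of the summits inside that window, 13 of 14 member summits in KARPAS-45 and 10 of 12 in PER-117 were within 100 bp, beside 86.9% and 86.5% over all genes. In RPL11 the marked core lay 3.5 bp from the KARPAS-45 summit and 5.5 bp from the PER-117 summit, in RPL18 4.5 and 17.5 bp, and in RPL4 15.5 and 7.5 bp. The 2 cores of RPS3A lay on either side of its summits, at 52.5 and 65.5 bp in KARPAS-45. RPS16 and RPL10A held neither core in the window, and RPL22 held TGTGGT only past the printed stretch, 30 bases after the start. The median fold enrichment was 13.6 in KARPAS-45 for members with a core and 6.73 for the 43 bound members without. In PER-117 it was 8.27 and 5.53, the latter over 36. All bound genes showed the same order, with 9.75 and 6.58 in KARPAS-45 and 6.95 and 5.47 in PER-117.

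Other genes of the translation machinery were taken from set lists. Of 29 initiation factors, 26 (89.7%) were bound in the KARPAS-45 and 21 (72.4%) in the PER-117 library, and 28 were acetylated in each line. The shares over protein-coding genes acetylated in both lines were 79.8% and 57.3%. EIF4A1, the helicase that unwinds messages for scanning, had 7.32 and 8.25. Of 40 ribosome biogenesis genes 33 (82.5%) and 29 (72.5%) were bound. The nucleolar proteins NCL and FBL had 4.8 and 5.66, and 4.58 and 7.72, while NPM1 was bound in KARPAS-45 only, with 4.06. Of 11 elongation factors and partners 9 (81.8%) and 6 (54.5%) were bound, near those shares. EEF1A1, which delivers aminoacyl-tRNA, had 8.63 and 7.5. FAU, which encodes a ribosomal protein fused to a relative of ubiquitin and falls outside the symbol rule, had 3.91 and 3.19. The 77 mitochondrial ribosomal protein genes were bound in 62 cases (80.5%) in the KARPAS-45 and 54 (70.1%) in the PER-117 library, and 75 were acetylated in each. The 39 proteasome subunit genes were bound at 30 (76.9%) and 21 (53.8%). None of these differences was tested.

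Ribosomal protein genes have left many pseudogenes, mostly copies of their messages inserted elsewhere. RefSeq lists 1962 of them on these chromosomes. Of these, 70 (3.57%) had a RUNX2 summit within 1 kb of an end in the KARPAS-45 and 33 (1.68%) in the PER-117 library, and 236 and 113 were acetylated. Among the 1480 with no protein-coding gene end within 10 kb of their span, 43 (2.91%) and 18 (1.22%) were bound. How reads that match several copies were treated is not given in the sources used here.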

How the data were processed

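Each ChIP library has 1 peak list, used as deposited, and the 3 input libraries were not analysed here. Per the submitters' processing notes, STAR 2.4.2a, MACS2 and hg38 were used. What each did, and its settings, is not given in the sources used here. The authors deposited 10 columns per peak: among them the summit offset, a display score, −log10 of the p-value and of the q-value, and the fold enrichment, which is a linear ratio. In the deposited H3K27ac lists the last column is 100 throughout and was not used. The lowest deposited −log10 q for H3K27ac was 0.431 (KARPAS-45) and 1.01 (PER-117), and for RUNX2 1.31 and 1.3.

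Several summits of 1 interval were joined, keeping the one of highest fold enrichment. Genes, strands, starts and promoters came from RefSeq tables of GRCh38.p14. A strand was at hand for 64 members. No difference was tested. Gene-end calls were tested on simulated data, where 0 calls differed from a separate count. Calculations ran in Python 3.11.15 (pandas 2.3.3, numpy 2.4.6, scipy 1.17.1), and figures in matplotlib 3.10.9.

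The members, gene lists and alternatives were chosen with earlier results of these data known. The rule named the 10 strongest members bound in both lines, up to 6 per line bound in that line only, members without H3K27ac, and the stalk, paralog and T-ALL groups with RPSA. Other members, and genes of the other translation lists, were named after their values were seen. The 4 members on chromosome 8 were counted in every list and are not named. Values of some other genes are not reported here.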

Additional observations from a re-analysis of the deposited data

How the results depend on the processing

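The lists hold 1 library each, so no replicate could be left out. No paired analysis was possible because each group has a single library. Keeping RUNX2 peaks whose −log10 q reached 10, 51 members were bound in KARPAS-45, 42 in PER-117 and 34 in both, beside 45.3% and 28.7% of acetylated protein-coding genes. With the 5000 peaks of highest fold enrichment, 12, 17 and 9 were bound, beside 8.59% and 11.7%, and the median fold enrichment was 20.5 and 11.5. With RUNX2 intervals overlapping the window, the members were 77 and 67 and the background 75.7% and 57.1%. A window of 2.5 kb gave 77 and 67 members beside 78.5% and 60.6%, and 500 bp gave 73 and 58 beside 67.7% and 47.9%. With starts only, 60 and 50 of 64 members were bound beside 76.1% and 56.5%. Keeping H3K27ac regions whose −log10 q reached 2, 72 and 80 members were acetylated, beside 10153 and 10720 of 19974 protein-coding genes. Of those members 94.4% and 81.2% carried RUNX2, beside 75.0% and 56.9% of acetylated protein-coding genes. With the wider 50% of regions 80 and 80 members were acetylated, beside 10669 and 9946 of 19974 protein-coding genes. The background for RUNX2 was then 77.9% and 59.0%. With the KARPAS-45 H3K27ac list at the covered length of PER-117, 15 members and 3197 of 19974 protein-coding genes were acetylated there. RUNX2 was at 93.3% of those members, beside 79.6% of those genes. Under each of these 9 alternatives the share of acetylated members with RUNX2 was above that of acetylated protein-coding genes in both lines. The covered-length alternative left the PER-117 lists unchanged, so there it only repeats the main result (81.2% beside 55.3%). Depth is unknown and limits what the absence of a peak can show.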
